A study of Mus musculus with 43 samples.

Results

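Immediate-early genes are transcribed within minutes of neuronal activity, and their level differs widely between the neurons of one preparation. The cells compared here are the NAcLat→VTA cells with the highest and with the lowest level of such genes. Each of the 43 cells received a score, the mean of log2(CPM + 1) over *Fos*, *Junb*, *Egr1*, *Arc* and *Npas4*, where CPM is the estimated count of a gene per 1000000 counts of its cell. The 14 cells with the highest score are called high cells and the 14 with the lowest score low cells, so that 28 of 43 cells were compared and 15 middle cells lay between them. The sides were chosen by measured values of these same cells, and the levels of the 5 genes on the sides are therefore a description of the choice.

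The cells were neurons of the lateral nucleus accumbens of young adult C57BL/6J mice, labelled by retrograde beads in the ventral tegmental area, recorded in acute slices with current injections, and aspirated through the patch pipette, 1 library per cell. REG cells, labelled NORM, came from mice of both sexes on standard chow and HFD cells from mice offered high-fat chow beside the standard chow for weeks. No transgene is named for these cells, and all of them had been through slicing, recovery and recording before their RNA was taken. The labels place the cells in batch 1 or batch 2 and do not name the mouse of a cell. Cells of 1 mouse are not independent, so each diet counted as 1 sample. Differences between the sides are given as values, without a test or an error over cells.

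Activity of glutamate receptors, dopamine D1 receptors and calcium channels reaches the nucleus through cyclic AMP and the MAP kinase cascade, where CREB, SRF and their partners switch on the immediate-early genes without new protein synthesis. *Fos*, *Junb*, *Egr1* and *Npas4* code for transcription factors, and *Arc* codes for a cytoskeletal protein that moves AMPA receptors out of the synapse. A further group of induced products acts back on the pathway, such as the phosphatases that switch MAP kinases off, and another group acts at synapses or is secreted. In the striatum, these genes are widely used as a mark of recently active neurons.

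The word TGACG is the core of the cyclic AMP response element that CREB binds. Among transcription and feedback regulators, it occurred in most promoter windows on either side of the 2-fold limit. The shares were 65.0% for genes at least 2-fold higher on the high side and 57.9% for those within 2-fold. The promoters of 2 score genes and 2 further regulators are shown, and each holds this word at the distances given below. *Npas4* and *Dusp1* were chosen too but are not shown, because their windows hold bases of annotated exons. The sequences shown are the 250 bases before the RefSeq start (GRCm38.p6), written 5′ to 3′ on the strand of the gene, with TGACG or its reverse complement CGTCA in capitals. None of these bases lies in an annotated exon of the same gene.
Fos, chr12:85473640-85473889, plus strand: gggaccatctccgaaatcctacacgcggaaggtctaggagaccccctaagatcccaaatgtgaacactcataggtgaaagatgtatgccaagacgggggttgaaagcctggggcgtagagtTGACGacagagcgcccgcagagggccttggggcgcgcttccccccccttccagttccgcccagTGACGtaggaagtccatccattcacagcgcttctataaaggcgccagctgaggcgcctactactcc
Junb, chr8:84978749-84978998, minus strand: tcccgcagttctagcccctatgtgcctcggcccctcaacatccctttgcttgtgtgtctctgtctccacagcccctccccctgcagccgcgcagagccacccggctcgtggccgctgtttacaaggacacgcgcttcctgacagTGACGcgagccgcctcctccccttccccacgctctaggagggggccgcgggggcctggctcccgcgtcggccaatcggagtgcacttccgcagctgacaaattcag
Btg2, chr1:134079156-134079405, minus strand: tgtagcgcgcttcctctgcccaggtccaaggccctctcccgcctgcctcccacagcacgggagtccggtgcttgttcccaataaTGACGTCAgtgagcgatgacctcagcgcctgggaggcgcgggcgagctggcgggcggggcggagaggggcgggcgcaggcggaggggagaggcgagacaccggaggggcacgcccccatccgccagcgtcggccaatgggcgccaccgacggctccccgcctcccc
Nr4a1, chr15:101266596-101266845, plus strand: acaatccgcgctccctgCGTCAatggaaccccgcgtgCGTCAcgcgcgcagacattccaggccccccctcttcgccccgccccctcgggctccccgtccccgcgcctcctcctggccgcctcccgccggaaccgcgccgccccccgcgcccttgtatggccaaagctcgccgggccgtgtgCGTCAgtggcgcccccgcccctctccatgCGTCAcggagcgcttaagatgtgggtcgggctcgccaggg
The first base of the word lay at -129 and -66 from the start in *Fos*, at -106 in *Junb* and at -233, -213, -69 and -40 in *Nr4a1*. In *Btg2* the words of both strands overlapped at -166 and -163 and form the full element TGACGTCA.

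All windows of 300 bases in the RefSeq table, reaching 50 bases past the start, were searched for the same words on both strands. TGACG occurred in 20.8% of all 32851 windows, in 31.8% of the 10808 windows of the genes compared here, and in 22 of 29 windows, or 75.9%, of the rapidly induced transcription regulators described below. Feedback regulators held it in 7 of 17 windows and effectors in 10 of 27, whereas genes of the signalling upstream held it in 6 of 32. The full TGACGTCA, which contains TGACG, stood in 2 of 29, 2 of 17, 4 of 27, 0 of 32 and 0 of 18 windows of those lists. It stood in 3.28% of the windows of the genes compared and in 1.79% of all windows. The CArG box, the site of SRF, stood in 5 of 29 windows of the transcription regulators, in 1.30% of the windows of the genes compared and in 1.63% of all windows. With N for any base, TGANTCA stood in 1 of 29 windows of the transcription regulators and GCGNGGGCG in 9 of 29. In the windows of the genes compared, these 2 words stood in 4.78% and 10.9%. Among transcription and feedback regulators, TGACG occurred in 65.0% of the windows of the genes at least 2-fold higher on the high side and in 57.9% of those within 2-fold. Several genes have more than 1 window. The word contains CpG, the median number of CpG was 25 in windows of the transcription regulators, 21 in those of the genes compared and 7 in all windows, and the median GC content was 64.7%, 61.0% and 52.7%. *Arc* and *Egr1* were not among the windows searched.

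Along the score, cells formed a continuous range rather than separate groups. Scores ran from 9.13 to 3.13. The last high cell had 7.14 and the first middle cell 6.96, and the last middle cell had 5.12 and the first low cell 5.09. *Fos* set the sides apart most: it was 34.5 to 2000.2 CPM in high cells with a median of 376, and 0.366 to 82.6 with a median of 2.95 in low cells. Of the high cells, 13 of 14 exceeded every low cell in *Fos*, and HFD cell 8 alone carried 53.9% of the low sum.

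**Figure D1:**
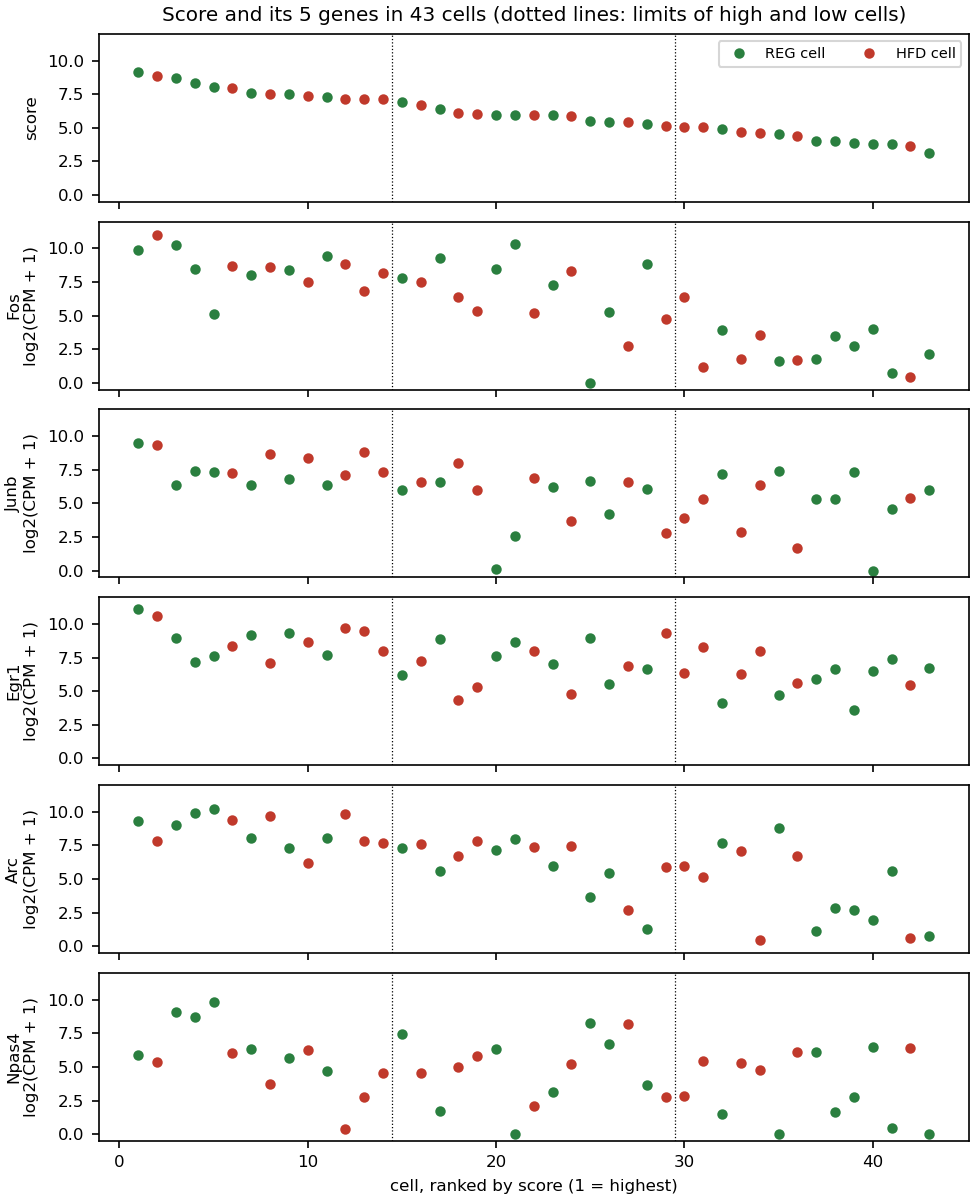
Score and log2(CPM + 1) of its 5 genes in each of the 43 cells, ordered by score from rank 1 to rank 43, with REG cells in green and HFD cells in red and dotted lines at the limits of the 14 high and 14 low cells. *Fos* and *Arc* fall along the order, and *Npas4* is scattered over the whole of it.

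*Arc* was 71.5 to 1189.7 CPM with a median of 393 in high cells, and 0.364 to 440.0 with a median of 20.2 in low cells. *Egr1* was 134 to 2192 with a median of 444 in high cells, and 11.3 to 315 with a median of 77.6 in low cells. *Junb* was 80.0 to 716 with a median of 159 in high cells, and 0 to 166 with a median of 39.2 in low cells. For each of these 3 genes the sides overlapped, with 6 to 9 high cells above every low cell.

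*Npas4*, a transcription factor that responds to calcium entry, followed the others least. It was 0.289 to 905 CPM in high cells with a median of 53.4, and 0 to 88.0 with a median of 16.5 in low cells. The 3 highest values among high cells lay in REG cells. The median was 78.3 in the 7 REG high cells and 22.2 in the 7 HFD high cells. Among HFD cells the low side had the higher mean, at 44.6 against 31.6 CPM. Over the 43 cells, Spearman's rho of *Npas4* with each of the other 4 genes lay between -0.041 and 0.038, while *Fos* and *Arc* had a rho of 0.59, *Fos* and *Egr1* 0.48 and *Junb* and *Arc* 0.47. The points are cells that share mice, batches and depth, so these are descriptions. All 5 genes exceeded 15 CPM in 11 of 14 high cells, in 5 of 15 middle cells and in 0 of 14 low cells, an order that the choice of the sides largely fixes.

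Both diets supplied both sides. The high side held 7 REG and 7 HFD cells and the low side 8 REG and 6 HFD cells. Scores of REG cells were 3.13 to 9.13 with a median of 5.92 (n = 23), and those of HFD cells 3.68 to 8.82 with a median of 5.98 (n = 20). Batches were less even: 10 of 14 high cells and 8 of 14 low cells came from batch 2, and the low side held 6 REG cells but 0 HFD cells of batch 1. Within REG cells, the median score was 5.29 in batch 1 (n = 13) and 6.69 in batch 2 (n = 10), whereas in HFD cells it was 6.08 in batch 1 (n = 5) and 5.89 in batch 2 (n = 15).

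Depth differed between the sides. Total counts were 1306908 to 3743107 in high cells, with a median of 1800827.5, and 176961 to 8242048 in low cells, with a median of 1250908. Low cells under 1000000 counts numbered 6, high cells 0. The median number of genes detected was 11499.5 against 8843.5, and 8034.5 against 6690.5 after each cell was thinned to 150000 counts. The score had a rho of 0.29 with the log of the total count and 0.42 with the number of genes detected. Among cells of 1000000 to 4000000 counts, 14 high and 6 low cells remained, and ratios within that band are given beside the results. *Lars2*, a mitochondrial tRNA synthetase gene whose mouse transcript carries ribosomal RNA-like sequence, held 24.9% of counts at the median of high cells and 26.7% at that of low cells. In HFD cell 8, a low cell, it held 79.8%. With *Lars2* and the gene model *Gm19220* taken out of the totals, the score of this cell was 7.84 and its rank moved from 30 to 11, onto the high side, so its place rests on how the total is counted.

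**Figure D2:**
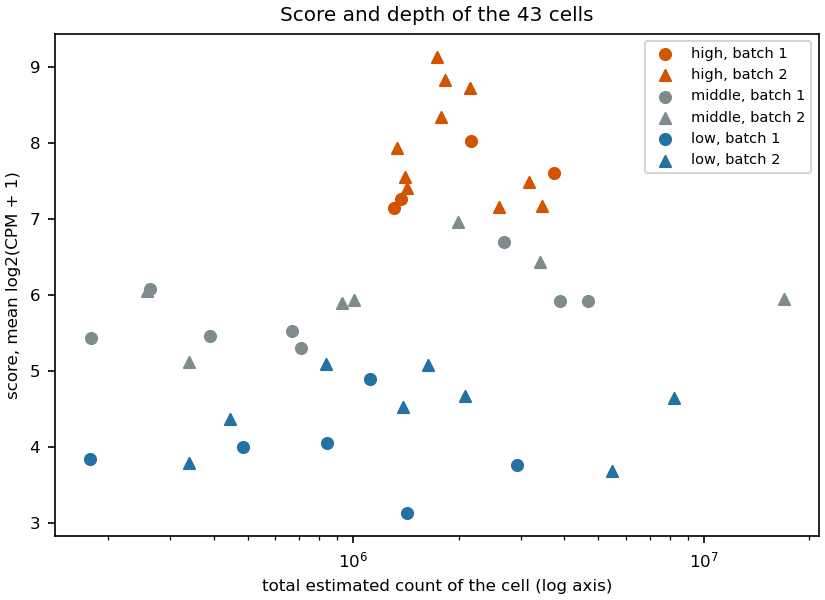
Score against total estimated count on a log axis for the 43 cells, with colour for the side and circles and triangles for batch 1 and batch 2. High cells lie between 1306908 and 3743107 counts, and low cells spread from 176961 to 8242048.

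Markers of the labelled cell type were present on both sides. *Gad1*, the GABA-synthesizing enzyme, had a median of 442 CPM in high cells and 288 in low cells, and its relative *Gad2* 244 and 283. *Slc32a1*, the vesicular GABA transporter, had medians of 16.6 and 12.7 and a log2 ratio of -1.15, which was 0.38 without HFD cell 15. *Drd1*, the D1 dopamine receptor, had a median of 226 on both sides. *Drd2*, the D2 receptor, was detected in 3 high and 3 low cells. Of 6 D2 markers only *Penk* passed the filter, with a log2 ratio of 0.73. Its medians were 5.04 CPM in high and 21.98 in low cells. *Adora2a* was detected in 6 high and 3 low cells, *Sp9* in 10 and 6 and *Grik3* in 13 and 9. *Gpr6* was detected in 0 high and 3 low cells. The sums of all 6 ran from 2.02 to 1404 CPM in high cells, with a median of 9.89. In low cells they ran from 1.44 to 582, with a median of 27.7. The highest sum was that of HFD cell 16. Medium spiny neuron markers passed the filter in 7 of 7 cases, and all 7 lay within 2-fold between the sides. Their sums ran from 1383 to 5704 CPM in high cells and from 422 to 9167 in low cells. *Isl1* was the exception in the D1 list, with a mean of 95.5 CPM in high and 23.9 in low cells. The sums of the 7 D1 markers ran from 105 to 5978 CPM in high cells, with a median of 1982. In low cells they ran from 261 to 6600, with a median of 2195. The lowest sum was that of HFD cell 13, a high cell that carried 84.1% of the high sum of *Inhba* and 39.4% of that of *Btg2*. Of 7 microglia markers, 6 passed the filter. The summed level of all 7 was 1.43 to 682 CPM in high cells and 0.341 to 1711 in low cells, with medians of 31.7 and 64.9. Single markers went both ways: *Csf1r* at 2.03 and *P2ry12* at 1.76 were 2-fold higher, *C1qb* at -2.27 was 2-fold lower, and 3 lay within 2-fold. Cells with at least 4 of these markers above 15 CPM numbered 3 on the high side and 2 on the low side. Microglia use some of the same rapid response genes, and the part of their RNA in the results was not tested. Of 7 astrocyte markers 4 passed the filter, with *Gja1* 2-fold higher at 2.28 and 3 within 2-fold. The sums of all 7 ran from 17.1 to 859 CPM in high cells and from 2.71 to 1198 in low cells, with medians of 156 and 195. Of 7 endothelial markers only *Pecam1* passed, with medians of 284 and 249 CPM but means of 293 and 748, a log2 ratio of -1.35, while *Cldn5*, *Cdh5* and *Ly6c1* were at 0 in every high and low cell. Of 6 oligodendrocyte markers 2 passed. The sums of all 6 ran from 0.578 to 382 CPM in high cells and from 0 to 968 in low cells, with medians of 22.8 and 5.14 and means of 83.2 and 101. The part of these cell types in the results was not tested.

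Outside the 5 genes, more genes stood 2-fold higher than 2-fold lower on the high side. Genes were kept if 5 or more cells exceeded 15 CPM and the mean exceeded 4 CPM. Of the 10797 kept, 26.3% had a mean CPM at least 2-fold higher in high cells and 11.5% at least 2-fold lower, with a median log2 ratio of 0.32. Requiring the same sign in both batches, in both diets, on TPM and with any 1 cell left out kept 18.1% higher and 6.46% lower. Genes with a rho of at least 0.5 with the score made up 0.658%. These shares are the background for each list below. The higher direction held 69.7% of the genes past 2-fold, 88.1% on the mean of log2(CPM + 1), 59.0% within batch 1 and 56.3% when the sides were chosen with *Lars2* and *Gm19220* out of the totals. TMM factors lowered the median log2 ratio to 0.20 and totals without *Lars2* and *Gm19220* to 0.21, so ratios are best read against the median of all genes.

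Rapidly induced transcription regulators other than the score genes held several members well above the median of all genes, led by *Btg2*, *Srf* and *Jun*. Of 26 members, 19 passed the filter, 9 were at least 2-fold higher, 0 at least 2-fold lower and 10 within 2-fold. The median log2 ratio was 0.92, and 26.3% of all genes compared were 2-fold higher. Members that are high on 1 side only pass the filter through that side, so the counts are descriptive. *Btg2*, an antiproliferative co-regulator, had the highest ratio.

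*Btg2* was 0.267 to 902 CPM with a median of 83.9 in high cells, 0 to 167 with a median of 11.2 in middle cells, and 0 to 38.5 with a median of 2.76 in low cells. The mean was 163 CPM in high and 5.85 in low cells. Most high cells stood above every low cell, 10 of 14, and 3 high cells lay near 0. *Jun*, the partner of FOS in the AP-1 factor, was 1.40 to 736 with a median of 168 in high cells and 0 to 293 with a median of 22.5 in low cells, a log2 ratio of 2.35. *Fosb*, whose stable splice product builds up in the striatum with repeated stimulation, was 0.315 to 304 with a median of 77.0 against 0 to 211 with a median of 5.88, a log2 ratio of 1.98. In *Jun* and *Fosb* the sides overlapped, and 5 and 1 high cells respectively exceeded every low cell.

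*Nr4a1*, an orphan nuclear receptor, was 1.42 to 566 CPM with a median of 219 in high cells and 0 to 582 with a median of 1.92 in low cells. A single low cell, HFD cell 19, carried 65.5% of the low sum, which held the log2 ratio of the means to 1.76. *Srf*, the factor that binds the CArG box, had a log2 ratio of 3.75, *Fosl2* 1.97 and *Bhlhe40*, a repressor of the clock, 1.89. Members that did not share the direction were *Cebpb* at -0.87, *Csrnp1* at -0.76 and *Klf10* at -0.66, and *Egr3* stood at 0.08 and *Atf3* at -0.05. *Egr2* and *Egr4* were 2-fold higher at 1.46 and 1.34.

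**Figure D3:**
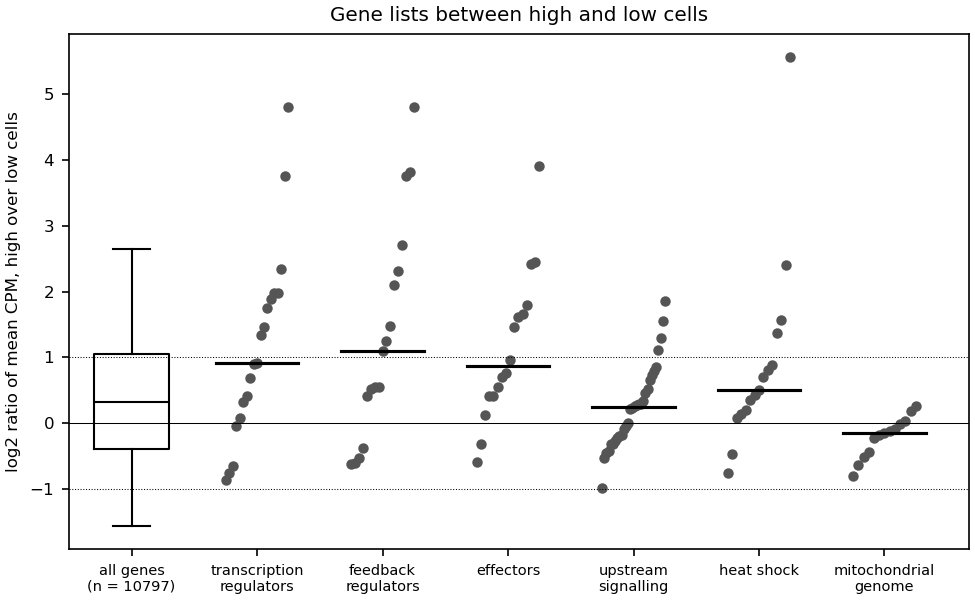
Log2 ratio of mean CPM, high over low cells, of each gene that passed the filter in 6 lists, with a bar at each list's median, beside a box of all 10797 genes (quartiles, whiskers at the 5th and 95th percentiles). Transcription regulators, feedback regulators, effectors and heat shock genes each have members above the upper whisker, and the mitochondrial genes lie within 2-fold.

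Feedback regulators gave the gene nearest to the score. Of 20 members, 17 passed the filter, 9 were at least 2-fold higher, 0 at least 2-fold lower and 8 within 2-fold. The median log2 ratio was 1.09, and 5 members had a rho of at least 0.5 with the score. Over all genes compared, 26.3% were 2-fold higher and 0.658% had such a rho. The list's median depended on the choice of cells, at 0.21 with sides chosen without *Fos* and 0.057 between the 10 highest and 10 lowest cells, while medians over all genes were 0.22 and 0.20. *Dusp1*, the nuclear phosphatase that switches MAP kinases off, had a rho of 0.66 over 43 cells, the highest of any gene outside the score. Within the 15 middle cells its rho was 0.19, beside a median of 0.10 over all genes compared. *Dusp1* was 85.4 to 1648 CPM with a median of 352 in high cells, 3.81 to 1097 with a median of 156 in middle cells, and 0.364 to 188 with a median of 20.7 in low cells. Of the high cells, 11 of 14 stood above every low cell, and the 14 all exceeded the low median. The log2 ratio of 3.76 was 3.67 and 3.91 in batches 1 and 2, and 3.96 in REG and 3.53 in HFD cells. It was 4.29 within 1000000 to 4000000 counts, and at least 3.54 with any 1 cell left out. Over the other settings tried, it ranged from 2.55 to 4.72. The lowest value came from sides chosen without *Npas4*, and the highest from the mean of log2(CPM + 1).

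*Plk2*, an activity-induced kinase that weakens synapses, was 256 to 3569.5 CPM with a median of 1369 in high cells and 34.7 to 866 with a median of 437 in low cells. Its log2 ratio of 2.10 moved only from 1.97 to 2.23 with any 1 cell left out, and 10 high cells exceeded every low cell. *Gadd45g*, a stress-response gene, was 1.15 to 954 with a median of 223 against 0 to 225 with a median of 8.53, a log2 ratio of 2.71. In *Gadd45g*, 7 high cells stood above every low cell, and its ratios in batches 1 and 2 were 0.86 and 4.41.

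*Dusp5* had a log2 ratio of 4.81 and *Plk3* 3.83, and both medians in low cells were close to 0. In high cells the median was 5.29 CPM for *Dusp5* and 49.3 for *Plk3*. *Dusp5* exceeded 15 CPM in 4 of 14 high cells, and REG cell 18 carried 43.1% of its high sum. Without cells that had at least 4 microglia markers above 15 CPM, the ratio of *Dusp5* was 2.75. *Dusp6*, the cytoplasmic phosphatase of ERK, had 2.31 over all cells but -1.14 in batch 1 and 3.26 in batch 2. *Dusp14* and *Spry4* were also at least 2-fold higher in the mean, at 1.48 and 1.25, and *Rgs2*, which curbs G-protein signalling, at 1.09. The median of *Spry4* went the other way, at 3.60 CPM in high and 8.01 in low cells. *Sik1* stood at -0.63, *Nfkbia* at -0.61 and *Spry2* at -0.53.

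**Figure D4:**
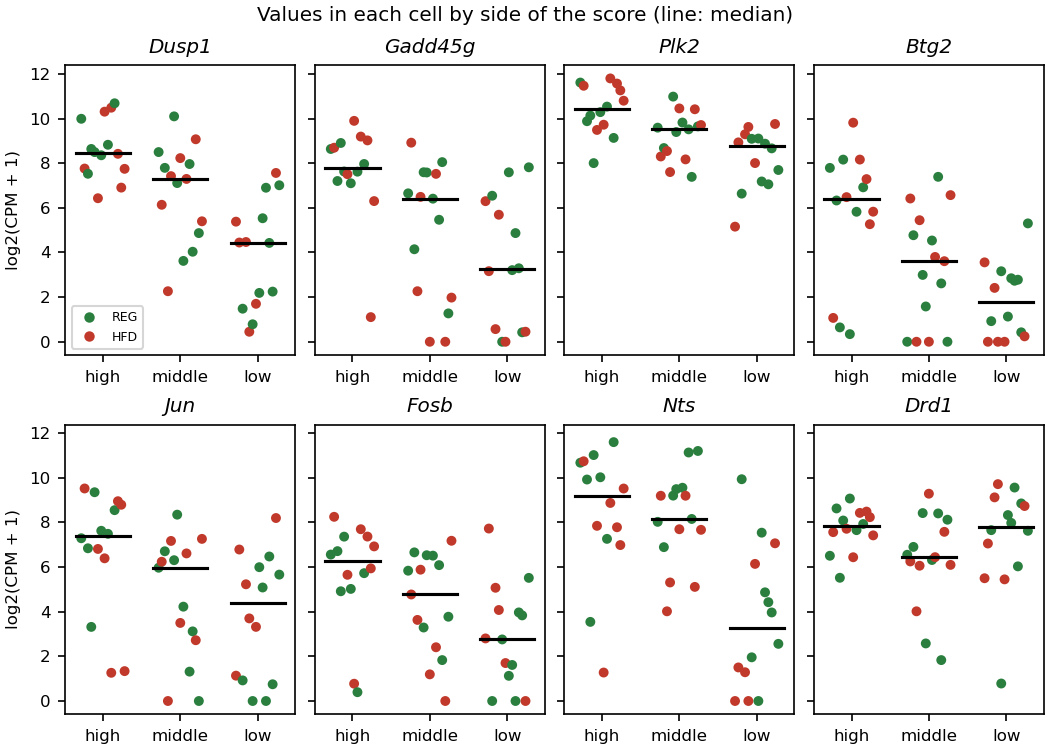
Log2(CPM + 1) of 8 genes in each high, middle and low cell, with REG cells in green, HFD cells in red and a line at the median. *Dusp1*, *Plk2* and *Gadd45g* step down from high to low, *Nts* is near 0 in several low cells, and *Drd1* has the same median on the high and low side.

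Among synaptic and secreted effectors, several ratios rested on single cells. Of 20 members, 16 passed the filter, 7 were at least 2-fold higher, 0 at least 2-fold lower and 9 within 2-fold. The median log2 ratio was 0.86, and 26.3% of all genes compared were 2-fold higher. A rho of at least 0.5 with the score was found for 1 member. *Arl4d*, a small GTPase, was 0 to 542 CPM with a median of 152 in high cells and 0 to 384 with a median of 2.66 in low cells, and its log2 ratio was 1.79. *Vgf*, a secreted growth factor precursor, had a median of 64.3 and a maximum of 374 in high cells against a median of 10.4 and a maximum of 179 in low cells, a log2 ratio of 1.46. The sides overlapped in both genes. *Inhba*, the activin subunit, had a log2 ratio of 3.91, but HFD cell 13 carried 84.1% of the high sum and the ratio was -0.16 among REG cells. *Npy* had 1.61 with 99.5% of the high sum in the same cell and was -5.86 without it. *Nrn1*, a surface protein that promotes neurite growth, had 2.45, with 86.0% of the low sum in REG cell 15 and a range of 1.34 to 5.18 with any 1 cell left out. *Amigo3* had 2.42, with 90.2% of the low sum in HFD cell 11, a range of 0.98 to 5.67 with any 1 cell left out and -0.13 among HFD cells. *Nptx2*, which gathers AMPA receptors, had 1.66, while *Homer1* and *Bdnf* were within 2-fold at 0.55 and 0.41. Of the 7 members that were 2-fold higher, 2 had a middle mean between the sides, against 8 of 9 for the transcription regulators, 8 of 9 for the feedback regulators and 65.5% of all genes 2-fold higher.

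**Figure D5:**
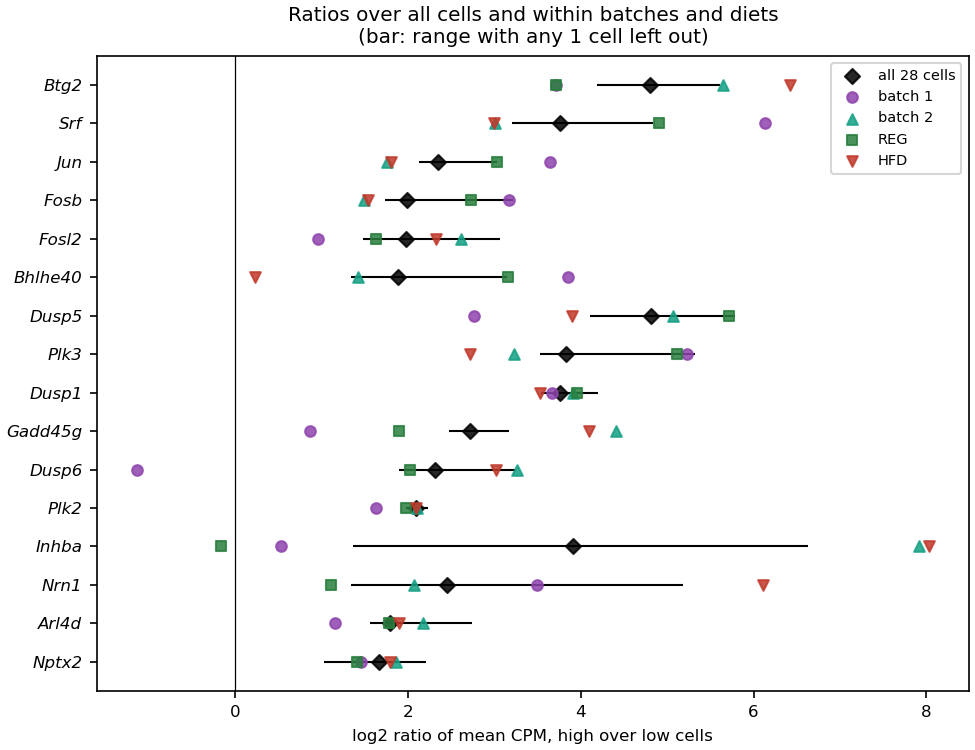
Log2 ratio of mean CPM, high over low cells, for 16 genes over all 28 cells, within each batch and within each diet, with a bar for the range when any 1 cell is left out. *Dusp1* and *Plk2* have the symbols close together, *Dusp6* is below 0 in batch 1 and *Inhba* is below 0 in REG cells.

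Within the 9 transcription regulators that were 2-fold higher, 8 were higher in both batches and 9 in both diets. For the 9 feedback regulators these counts were 7 and 8, and over all 2843 genes 2-fold higher the shares were 79.4% and 84.8%. Among cells of 1000000 to 4000000 counts, 7 of each 9 were at least 2-fold higher, against 78.1% of all these genes. The counts of both lists lie near those of all genes 2-fold higher. In that band the median log2 ratios were 1.18 for transcription regulators, 1.44 for feedback regulators and 1.17 for effectors, beside 0.43 for all genes.

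The signalling that drives these genes stood close to the background in its median. All 30 members of a list from dopamine and glutamate receptors to CREB passed the filter. At least 2-fold higher were 4, at least 2-fold lower 0 and within 2-fold 26, while 26.3% of all genes compared were 2-fold higher. The median log2 ratio was 0.25, beside 0.32 for all genes. *Drd1* was 45.0 to 538 CPM in high cells and 0.721 to 842 in low cells, a log2 ratio of -0.32. The genes at least 2-fold higher were *Camk4*, a nuclear kinase of CREB, at 1.86, *Elk1*, the MAP kinase target that binds with SRF, at 1.56, *Mef2c*, a calcium-regulated factor, at 1.30 and *Cacna1c*, the pore of an L-type calcium channel, at 1.11. *Camk4* was 1.42 to 473 with a median of 105 in high cells and 0 to 159 with a median of 13.5 in low cells, with overlap. *Elk1* was low throughout, with means of 6.20 CPM in high, 15.4 in middle and 2.11 in low cells, and its ratio was -0.60 with sides chosen without *Fos*. With any 1 cell left out, *Mef2c* ranged from 0.64 to 2.06 and *Cacna1c* from 0.75 to 1.60. *Creb1* itself stood at -0.98, within 2-fold.

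Heat shock and unfolded protein genes, which respond to slicing and dissociation as well as to activity, are given for comparison. Of 16 members, 15 passed, 4 were at least 2-fold higher, 0 at least 2-fold lower and 11 within 2-fold. The median log2 ratio was 0.50. The count of higher members lies near the share over all genes compared, 26.3%. *Hspa1b*, an inducible chaperone, was 0 to 588 CPM with a median of 7.40 in high cells and 0 to 19.8 with a median of 0 in low cells. It exceeded 15 CPM in 6 high and 2 low cells, and the log2 ratio was 5.57. *Hspa1a* had 2.40, *Dnaja1*, a co-chaperone, 1.57 and *Atf4*, a stress-response factor, 1.38. *Hspa1a* and *Hspa1b* are near-identical, so the division of reads between them is uncertain. Genes of the mitochondrial genome, 13 of 13 passing, were all within 2-fold with a median of -0.15.

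Neurotensin, the peptide studied in these cells, was among the genes that were higher in high cells. *Nts* was 1.42 to 3107 CPM with a median of 602 in high cells, 15.2 to 2361 with a median of 285 in middle cells, and 0 to 981 with a median of 9.78 in low cells. The log2 ratio was 3.11. Of the high cells 5 stood above every low cell, and in the low group REG cell 6 carried 67.9% of the sum.

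Both diets showed the same direction for *Nts*. Among REG cells the median was 1042 CPM in 7 high cells and 17.6 in 8 low cells, and among HFD cells 229.9 in 7 high cells and 1.64 in 6 low cells. Within diets the log2 ratios were 3.06 and 3.86, and within batches 1 and 2 they were 3.10 and 4.27. It was 2.41 at 1000000 to 4000000 counts and 0.90 between the 21 highest and 21 lowest cells, below 2-fold. Within the 15 middle cells, rho of *Nts* with the score was -0.26, against 0.50 over all 43 cells. Of the 12 neuropeptide precursors, 8 passed, 2 were at least 2-fold higher and 2 lower, against 26.3% and 11.5% of all genes compared. *Cartpt* at -4.93 and *Sst* at -3.74 were the lower ones, and both had a median near 0 on each side and most of the low sum in 1 cell. *Tac1* and *Pdyn*, which mark D1 neurons, lay within 2-fold at -0.41 and -0.40.

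Genes outside the lists with the largest ratios of constant sign were sparse. *Coasy*, a coenzyme A synthase, had counts in 8 high and 2 low cells, with a mean of 31.1 CPM in high cells and 2 counts in all on the low side. *Trp53bp2*, *Il16* and *Gm45062* were likewise detected in 8 high cells each and in 1 or 2 low cells, with means of 13.3, 6.32 and 12.1 CPM in high cells. Their low sides held fewer than 3 counts in all, so no fold is given for these 4 genes. *Esyt3* had counts in 7 high and 0 low cells, and set against 3 counts over the low group its log2 ratio was 8.07, as a bound. HFD cell 10 carried 76.0% of its high sum, 2 high cells exceeded 15 CPM, and the ratio was 1.44 in batch 1. At the other end, *Tuba1c*, a tubulin gene, stood at -6.47, *Mob3a* at -6.38, *Tmem176b* at -5.63, *Zfp335* at -5.61, *Tvp23a* at -5.31 and *Samd11* at -4.58. HFD cell 19 carried 93.1% of the low sum of *Mob3a* and 84.7% of that of *Tvp23a*, and without it the ratios were -2.64 and -2.71. *Mob3a* and *Tvp23a* changed sign to 0.22 and 3.36 within 1000000 to 4000000 counts.

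After *Dusp1*, the genes with the highest rho with the score were *Taf11*, a subunit of the general factor TFIID, at 0.66, *Nipa2*, a magnesium transporter, at 0.65, *Daam1*, an actin regulator, at 0.63, *Tob1*, an antiproliferative relative of *Btg2*, at 0.61, *Hdgfl2* at 0.61, *Washc2* at 0.60 and *Gadd45g* at 0.60. The 43 points share mice, batch and depth. Within the 15 middle cells, rho was 0.20 for *Taf11*, 0.04 for *Nipa2*, 0.56 for *Daam1* and 0.25 for *Tob1*. It was 0.45 for *Hdgfl2*, 0.64 for *Washc2* and 0.41 for *Gadd45g*. *Tob1* was 7.83 to 254 CPM with a median of 66.0 in high cells and 0 to 113 with a median of 4.89 in low cells. *Taf11* was 3.20 to 441 with a median of 60.9 in high cells and 0 to 102 with a median of 0.807 in low cells. The high medians exceeded the low medians in both genes, but the sides overlapped, and the highest low cell of each stood above the high median.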

How the data were processed

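The authors aspirated the cytosol of single recorded cells, prepared polyA libraries, pseudo-aligned the reads with kallisto 0.45.1 to the GRCm38 transcriptome (Ensembl release 95), and summed transcripts to genes. One deposited table holds estimated counts per gene, not normalized, and the other holds TPM computed by the authors. The authors had removed cells with few reads or genes. Their filter (5 or more cells exceeding 15 CPM, mean exceeding 4 CPM) was applied here, leaving 10802 of 35825 genes, or 10797 without the score genes.

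Groups and batches come from the labels. The members, gene lists and rules were chosen with earlier results of these data known. The main value is log2 of mean CPM in high cells over mean CPM in low cells, each cell weighted equally, with no pseudocount. A side at 0 was given 3 counts and compared on summed counts. No test was run. Depth was 176961 to 16919555 counts per cell, and single counts in shallow cells are imprecise. Coordinates and promoters are of GRCm38.

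Genes were named by rule: the score genes, up to 6 members of each list past 2-fold (otherwise the 2 with the highest mean CPM), the 6 highest and 6 lowest ratios of constant sign with counts in at least 7 cells of the higher side, the 8 highest rho, genes the study names for these cells, and *Lars2*. A gene that the rule names is not reported here. Other list members with their values, and *Isl1*, were added after their values were seen. Alternatives were TPM, TMM (edgeR 4.0.16), DESeq2 1.42.0 size factors, totals without *Lars2* and *Gm19220*, log means, summed counts, thinning, other filters, single batches and diets, other rules for the sides, and leaving out each cell. The band of 1000000 to 4000000 counts was chosen after seeing the data. The script was tested on simulated data. Python 3.11.15 and R 4.3.3 were used.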

Additional observations from a re-analysis of the deposited data

How the results depend on the processing

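No paired analysis was possible because the replicate numbers only name cells in accession order. Of the named genes past 2-fold, 12 had been chosen for a constant sign under many of these settings. Of the other 36, 28 kept their sign under all 26 other settings and with any 1 cell left out. The transcription regulators kept a median log2 ratio between 0.45 and 1.63 over the other settings. Values are log2 ratios of high over low cells, medians for lists, and the cause of the shifts was not tested.

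In batch 1 alone, *Dusp6* was -1.14, *Sst* 2.76, *Slc32a1* 1.46 and the peptide list -0.0485, 2263 genes were 2-fold lower and 503 had a rho of at least 0.5. In batch 2 alone, that last count was 453, feedback regulators had 2.03, effectors 1.68 and summed microglia markers 0.66. In REG cells alone, *Inhba* was -0.16, *Sst* 2.57, *Slc32a1* 0.16 and the peptide list -0.18. In HFD cells alone, *Amigo3* was -0.13, feedback regulators 2.35, microglia markers 1.22 and the log2 ratio of median total counts -0.38, and 1943 genes were 2-fold lower. Between 1000000 and 4000000 counts, *Mob3a* was 0.22, *Tvp23a* 3.36 and microglia markers 0.47. Without cells rich in microglia markers the peptide list was -0.35.

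Sides chosen without *Fos* gave 0.21 for feedback regulators, -0.41 for peptides, 0.29 for mitochondrial genes and -0.60 for *Elk1*. Without *Junb* the peptide list was -0.0442, and without *Arc* -0.35. Without *Egr1*, upstream signalling was -0.0148, peptides -0.50 and *Amigo3* -0.42. Without *Npas4*, mitochondrial genes were 0.19 and *Amigo3* -0.20. Peptides were -0.0495 with sides by TPM, -0.13 by thinned counts and -0.27 with sides drawn within each batch, where microglia markers were 0.0023. With sides by totals without *Lars2* and *Gm19220*, peptides were -0.77 and upstream signalling -0.0698. The 10 highest against 10 lowest cells gave 0.0572 for feedback regulators, -0.0483 for upstream signalling and -0.79 for peptides. With 21 cells a side, peptides were -0.0938, microglia markers 0.63, *Npy* -0.20, *Amigo3* -0.33 and *Cartpt* 0.0169, and 789 genes were 2-fold lower.

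TMM factors gave -0.0105 for upstream signalling and -0.21 for peptides, and DESeq2 size factors -0.11 for peptides. Summed counts gave -0.23 and -0.60 for the same lists. On the mean of log2(CPM + 1), peptides were -0.48, mitochondrial genes 0.30, *Npy* -0.49 and *Slc32a1* 0.0478, and 448 genes were 2-fold lower. Requiring 10 cells above 15 CPM left 795 genes 2-fold lower, and no filter gave 7280 higher and 3249 lower. With any 1 cell left out, *Npy* ranged from -5.86 to 2.57, *Slc32a1* from -1.46 to 0.38, peptides from -0.35 to 0.29, mitochondrial genes from -0.43 to 0.20 and microglia markers from -0.91 to 0.42. Without HFD cell 15 *Slc32a1* had 0.38, and without REG cell 12 microglia markers had 0.42. Low cells under 1000000 counts numbered 6, and the part of depth in the results was not tested beyond thinning and the depth band.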
